A study of Mus musculus with 18 samples.

Results

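The 4 infarcted mouse hearts described here kept most of the expression of Acadm, the gene of the medium-chain acyl-CoA dehydrogenase, an enzyme of mitochondrial fatty acid oxidation, and they are set against 6 sham-operated hearts. They were chosen from 12 infarcted hearts, in a series of 18 hearts, by an Acadm level of at least 400 FPKM (fragments per kilobase of transcript, scaled to sequencing depth, so a level per length). All hearts came from C57BL/6 mice, an inbred laboratory strain, and the tissue was the apex of the heart, taken 1 day after surgery. The labelled groups were sham surgery with vehicle (sham_vehicle), myocardial infarction with vehicle (MI_vehicle) and infarction with DCA at 10 mg/kg per day (MI_DCA), 6 hearts each. What DCA stands for is not written in the labels. The study's title joins it with TGR5, the bile acid receptor encoded by Gpbar1, and on that ground it is read here as deoxycholic acid, one of the bile acids that gut bacteria form. The chosen hearts were MI_vehicle heart 4 and MI_DCA hearts 1, 3 and 5, so 3 of the 4 had received DCA, against 3 of the 8 other infarcted hearts. Treatment and the choice by Acadm can therefore not be told apart within these 4 hearts. No age, sex or infarct size is given in the sources used here.

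Infarction cuts the blood supply of part of the ventricle, and cardiomyocytes die in the core and survive under strain around it. Dying cells release nucleic acids and other signals that Toll-like receptors, RNA sensors and the cGAS and STING pathway detect. This leads to NF-kB-driven cytokines and chemokines, to entry of neutrophils and Ly6C-high monocytes, and to type I interferon, which acts through the receptor Ifnar1 and Ifnar2 and transcription factors that include Stat2 and Irf9 on a large set of interferon-stimulated genes. In parallel, strained cardiomyocytes lower fatty acid oxidation and ion channel genes and raise natriuretic peptide genes.

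Acadm measured 520.51 FPKM in MI_vehicle heart 4 and 510.02, 501 and 436 FPKM in MI_DCA hearts 1, 3 and 5. The 6 sham hearts ran from 536 to 679.67 FPKM with a median of 587, and the 8 other infarcted hearts from 141 to 374.5 FPKM with a median of 230.02. All 4 chosen hearts thus lay below every sham heart in the gene that chose them, and the nearest heart outside the threshold was MI_DCA heart 4 at 374.5 FPKM, followed by MI_vehicle heart 5 at 312 FPKM. The label of a mildly affected heart is described on other genes, picked for this purpose. The same 4 hearts were the 4 highest of the 12 infarcted hearts in Etfdh, Hadha, Cpt2, Ndufs1, Idh3a, Myh6 and Kcnip2, and the 4 lowest in Nppa, Nppb, Sprr1a and Timp1. In Atp2a2, 3 of them were among the 4 highest. Etfdh, Hadha and Cpt2 are fatty acid oxidation genes like Acadm, so their ranks are tied to the choice and support nothing. The other genes come from the same libraries and were picked by hand, so their ranks describe the 4 hearts and are no independent support. The label is used here for the metabolic, contractile and stress genes only, and on immune genes, as described further on, it did not hold throughout.

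Because the hearts were chosen by a measured gene of the same libraries, differences between the 4 hearts and sham are given as values without a p-value. For each gene the difference is that of the mean log2(FPKM + 1), which understates the change of low genes, and a gene is called higher or lower without overlap when all 4 hearts lay above or below all 6 sham hearts. The one test is limma on the labelled groups, all 12 infarcted hearts against the 6 sham hearts, with Benjamini-Hochberg adjustment. It includes the 4 chosen hearts but is no test of them, nor were they tested against the 8 other infarcted hearts, and "rose" and "fell" below refer to it. The labels do not state that libraries came from separate mice, so these p-values measure the spread between samples. Fewer cells of a type and less RNA per cell cannot be told apart in bulk tissue.

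Of the 11985 genes whose mean over the 18 hearts reached 1 FPKM, 874 (7.29%) were higher without overlap in the 4 hearts and 264 (2.2%) lower. With a difference of at least 1 on the log2 scale added, 112 genes (0.935%) were higher and 2 (0.0167%) lower. The 8 other infarcted hearts had 2754 genes (23%) above all sham hearts and 1517 (12.7%) below, although 8 hearts overlap a fixed set more easily than 4. In the labelled test 4232 genes (35.3%) rose and 2229 (18.6%) fell, but 3171 rose and 3161 fell after median-ratio scaling, and 2989 rose and 3450 fell after quantile normalization. The balance of directions in the 4 hearts depended on scaling as well, since the higher genes made up 76.8% of the non-overlapping ones without rescaling. That share was 56.5% after median-ratio scaling, with 665 higher and 513 lower genes, and 54.1% after quantile normalization, with 643 and 545. Counts of list members below that are not rescaled are to be read beside the unscaled shares over all tested genes. These are 7.29% higher and 2.2% lower without overlap, and 35.3% risen and 18.6% fallen in the labelled test. Member counts given after rescaling belong beside the rescaled counts over the 11985 genes. There 513 genes (median-ratio scaling) and 545 genes (quantile normalization) were lower, against 264 without rescaling. The median difference over all tested genes was 0.05 for the 4 hearts and 0.11 for the other infarcted hearts. For the 4 hearts it was -0.01 after median-ratio scaling and -0.02 after quantile normalization. The estimated depth was 10150000 to 11200000 mapped reads in the 4 hearts, 9450000 to 10700000 in sham and 11350000 to 13950000 in the other infarcted hearts. The library of sham_vehicle heart 1 stood apart, with an FPKM sum of 584701 where the other 5 sham hearts lay at or below 534211. Without it the number of genes lower without overlap was 580.

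**Figure D1:**
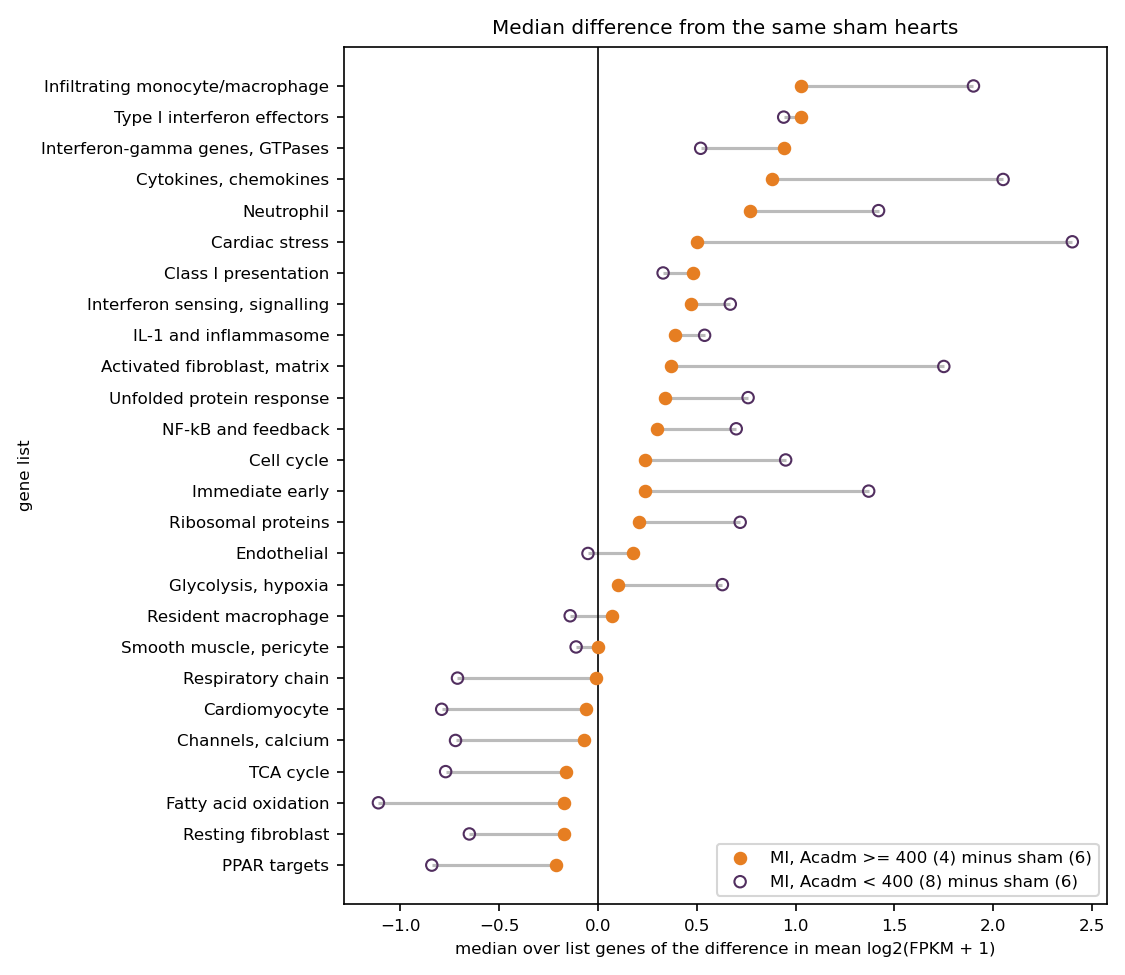
Median difference in mean log2(FPKM + 1) from the same 6 sham hearts over the measured genes of each list, for the 4 infarcted hearts with Acadm of at least 400 FPKM (filled) and the 8 other infarcted hearts (open). Both symbols lie close together for type I interferon effectors (1.03 and 0.94), and far apart for cardiac stress genes (0.50 and 2.40) and fatty acid oxidation genes (-0.17 and -1.11).

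Type I interferon effector genes, which encode antiviral and regulatory proteins, lay about as far above sham in these 4 hearts as in the other infarcted hearts. Of 45 listed genes 42 passed the filter, and 39 of those were higher without overlap, against 7.29% of all tested genes, and none lower. Their median difference was 1.03, beside 0.94 in the other infarcted hearts, and 21 of them differed by at least 1. A gene that passes the filter only through the infarcted hearts is bound to differ, so the count was repeated on the 39 members with a sham mean of at least 1 FPKM, of which 36 were higher without overlap (6.8% of all genes with such a mean). In the labelled test all 42 rose (35.3% of all genes). The 3 members that overlapped sham were Ifitm1, Nmi and Trex1.

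Averaged over the 42 genes, the log2 level above the sham mean was 1.14 in MI_vehicle heart 4 and 0.93, 1.24 and 1.27 in MI_DCA hearts 1, 3 and 5. Sham hearts ranged from -0.26 to 0.27, so all 4 hearts stood clear of them. The 8 other infarcted hearts ranged from 0.29 to 1.49 around the same levels, with 0.82 to 1.34 in the 5 given vehicle and 0.29 to 1.49 in the 3 given DCA. MI_DCA heart 6 was the lowest and MI_DCA heart 2 the highest, so both ends of the infarcted hearts were DCA hearts with low Acadm.

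**Figure D2:**
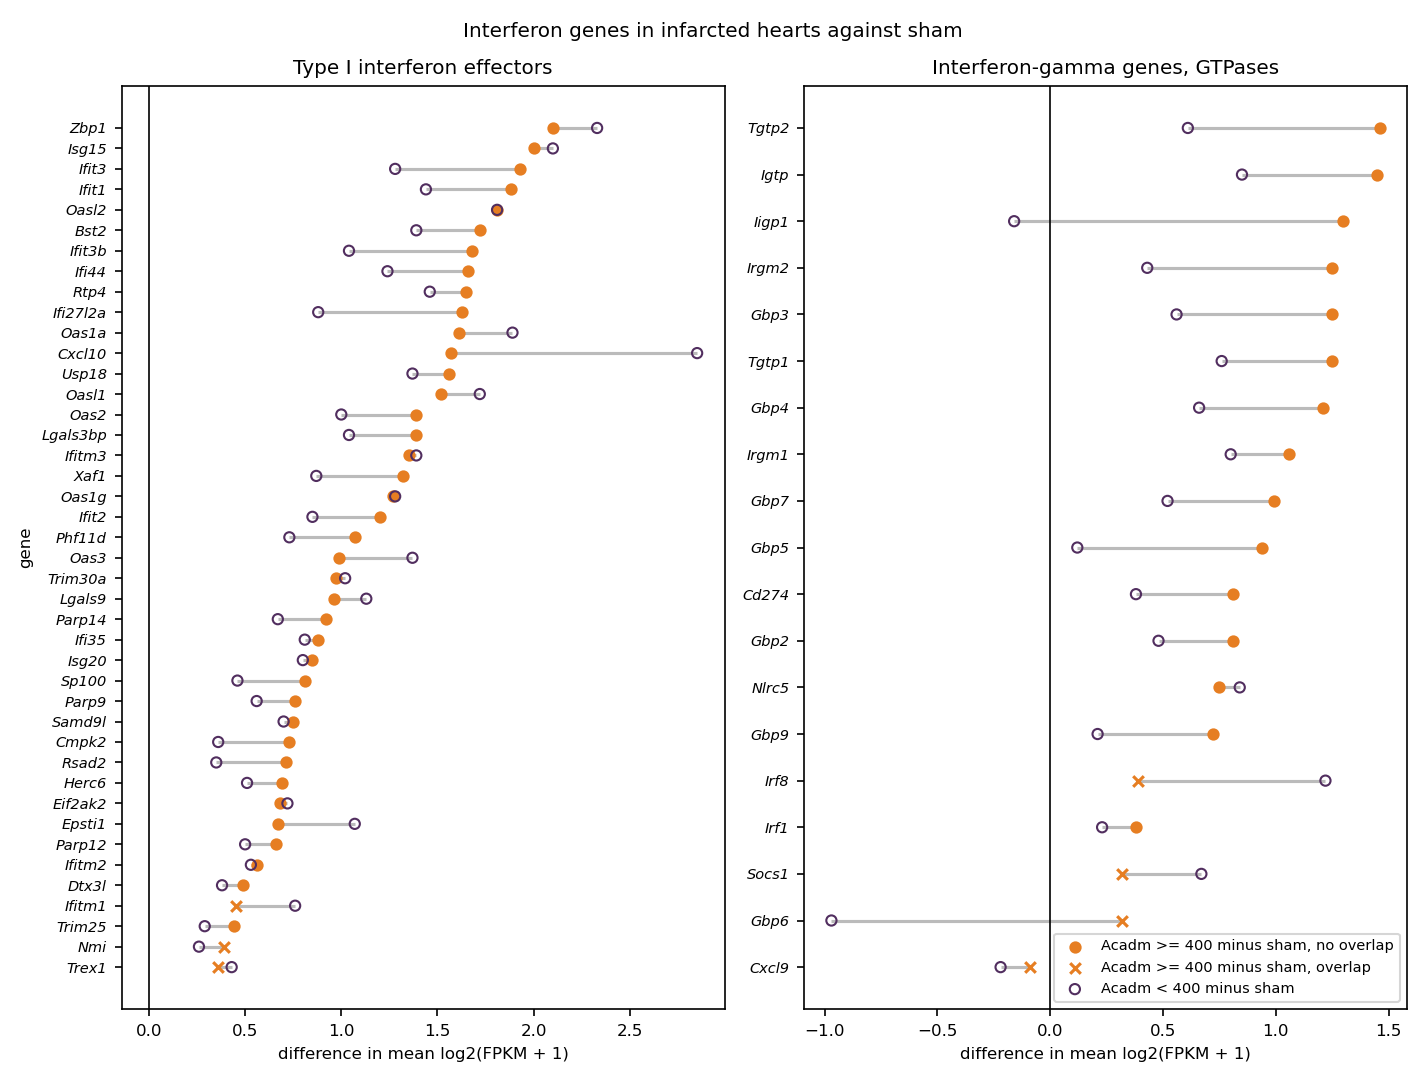
Difference in mean log2(FPKM + 1) from sham for each measured type I interferon effector gene (left) and each interferon-gamma gene or GTPase (right), for the 4 hearts with Acadm of at least 400 FPKM (filled or crosses) and the 8 other infarcted hearts (open). Crosses mark genes whose 4 values overlap the sham hearts, 3 on the left and 4 on the right.

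Irf7, the transcription factor that amplifies interferon production and a member of the sensing and signalling list, measured 93.5 FPKM in MI_vehicle heart 4 and 62.2, 104 and 101 FPKM in MI_DCA hearts 1, 3 and 5. Its sham values had a minimum of 13.54, a median of 15.8 and a maximum of 30.1 FPKM. Every one of the 4 hearts was above the highest sham heart, and their mean was 4.94 times the sham mean, where the other infarcted hearts (23.3 to 103 FPKM) reached 3.54 times. In the labelled test Irf7 rose by 1.89 (SE 0.27, adjusted p = 0.000158 by limma). The gene lies on chromosome 7 at 141263183 to 141266499 (GRCm38.p6).

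Isg15, a ubiquitin-like protein that is attached to other proteins in the interferon response, stood at 30.5 FPKM in MI_vehicle heart 4 and at 25.02, 36.1 and 33.9 FPKM in MI_DCA hearts 1, 3 and 5. Sham hearts had 5.47, 6.79 and 11.0 FPKM as minimum, median and maximum, with no overlap. The log2 difference from sham was 2.0, and that of the other infarcted hearts 2.10. Isg15 rose by 2.07 (SE 0.21, adjusted p = 1.33e-05 by limma).

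Ifit3 encodes a protein that binds foreign RNA together with its relatives. Its values were 48.3 FPKM in MI_vehicle heart 4 and 35.1, 67.4 and 53.0 FPKM in MI_DCA hearts 1, 3 and 5, against a sham maximum of 17.4 FPKM and a sham median of 12.5. The log2 difference of 1.93 exceeded the 1.28 of the other infarcted hearts, whose range of 12.5 to 53.1 FPKM overlapped both other sets. Ifit1 (1.88 and 1.44), Ifit3b (1.68 and 1.04), the interferon-induced gene Ifi44 (1.66 and 1.24), Rtp4 (1.65 and 1.46) and Bst2, the gene of the virus-tethering protein tetherin (1.72 and 1.39), had larger differences from sham in the 4 hearts than in the other infarcted hearts. Of the 42 members 27 had a higher mean log2 level in the 4 hearts than in the other 8, where 43.2% of all tested genes did. The 2 largest differences among the members that were not larger in the 4 hearts were those of Zbp1, a nucleic acid sensor of necroptosis (2.10 and 2.33), and Isg15.

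Cxcl10, a chemokine for T cells, was the member furthest behind the other infarcted hearts. It measured 6.87 FPKM in MI_vehicle heart 4 but 1.78, 2.96 and 3.74 FPKM in MI_DCA hearts 1, 3 and 5, above a sham range of 0.18 to 0.85 FPKM. The vehicle heart was the highest of the 4, and only that heart reached the range of the other infarcted hearts, 5.93 to 16.1 FPKM. The log2 differences from sham were 1.57 and 2.85, and Cxcl10 rose by 2.42 in the labelled test (SE 0.27, adjusted p = 3.08e-05 by limma). All its sham values were under 1 FPKM, so it passed the filter through the infarcted hearts and its difference is bound to the filter.

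The promoters of these genes were searched for GAAA followed by any 2 bases and again GAAA, the core of the interferon-stimulated response element to which a complex with Stat2 and Irf9 binds, on both strands (TTTC, any 2 bases, TTTC on the other), in the 250 bases before each RefSeq start of GRCm38.p6. Of the 42 type I members 35 had a promoter in the table, and 13 of those (37.1%) held the motif, beside 3.28% of the 9562 tested genes with a promoter and 2.98% of all 32851 promoters. None of 20 matched cardiac stress genes and none of 22 matched fatty acid oxidation genes held it. At a share of 3.28% lists this short can easily hold none, so these 2 lists are no contrast. The type I list was drawn up from known interferon-stimulated genes, so its share is no independent support. For the interferon-gamma list under 80% of members matched, so that check was void. The windows below are shown because they belong to members the results turn on. They read 5′ to 3′ on the strand of the gene, and capitals mark motif matches.
Isg15: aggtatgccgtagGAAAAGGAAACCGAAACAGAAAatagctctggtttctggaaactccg
Ifit1: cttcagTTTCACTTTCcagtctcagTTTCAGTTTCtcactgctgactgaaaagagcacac
Ifit3: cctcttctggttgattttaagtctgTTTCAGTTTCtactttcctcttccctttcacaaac
Bst2: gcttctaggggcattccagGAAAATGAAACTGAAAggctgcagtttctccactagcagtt
Cxcl10: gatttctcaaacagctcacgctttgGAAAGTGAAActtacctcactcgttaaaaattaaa

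The Isg15 window lies at chr4:156200850-156200909 on the minus strand and holds 3 matches that overlap each other, the nearest beginning 66 bases before the start. The Ifit1 window, at chr19:34640779-34640838 on the plus strand, holds 2 separate matches, the nearer 85 bases before the start. The Ifit3 window lies at chr19:34583382-34583441 on the plus strand, its match beginning 122 bases before the start used for the search. The RefSeq span of Ifit3 begins further upstream, at 34583119, so this window is inside the annotated gene. The Bst2 window is at chr8:71537562-71537621 on the minus strand, with 2 overlapping matches, the nearer beginning 124 bases before the start. The Cxcl10 window is at chr5:92349068-92349127 on the minus strand, its match beginning 213 bases before the start. The window of Irf7 held no match, which says only that these letters are not in its 250 bases. A match describes the sequence and is not evidence of binding in these hearts.

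Genes of the interferon-gamma response, mainly guanylate-binding proteins and immunity-related GTPases that attack membranes around pathogens, were also high in the 4 hearts. Of 19 measured members of 21 listed, 15 were higher without overlap (7.29% of all genes) and none lower. Of the 18 with a sham mean of at least 1 FPKM, 14 were higher without overlap (6.8% of all genes with such a mean). The median difference was 0.94 and that of the other infarcted hearts 0.52. In the labelled test 11 of 19 rose (35.3% of all genes) and none fell, and with the MI_DCA hearts alone against sham 5 rose (15.9% of all genes). Of the 19, 16 had a higher mean log2 level in the 4 hearts than in the other 8 (43.2% of all genes). Lowering the threshold to 350 FPKM, which adds MI_DCA heart 4, left 9 members higher without overlap and a median of 0.77. At that threshold 727 of all 11985 genes were higher without overlap.

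Averaged over these 19 genes, MI_vehicle heart 4 lay 0.91 above the sham mean and MI_DCA hearts 1, 3 and 5 lay 0.75, 0.81 and 1.01 above it, with sham hearts from -0.35 to 0.24. The 4 hearts were close to each other and above every sham heart. The other infarcted hearts spread from -0.39 to 1.33, from -0.18 to 1.33 with vehicle and from -0.39 to 0.58 with DCA, so some of them lay among the sham hearts and MI_vehicle heart 2 lay above the 4.

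Iigp1, an immunity-related GTPase gene (chromosome 18, 60373616 to 60392634), gave 80.1 FPKM in MI_vehicle heart 4 and 80.6, 80.2 and 91.1 FPKM in MI_DCA hearts 1, 3 and 5. Sham hearts had 22.98, 35.6 and 37.0 FPKM as minimum, median and maximum, and the other infarcted hearts 10.9, 31.9 and 67.8 FPKM. The 4 hearts were above all 14 others, with a mean of 2.48 times the sham mean, where the other infarcted hearts had 1.01 times. No change was called in the labelled test (0.32, SE 0.39, adjusted p = 0.495 by limma). Irgm2, a regulator of these GTPases, was likewise higher in the 4 hearts (25.3 to 28.9 FPKM) than in the other infarcted hearts (6.52 to 21.6 FPKM) and sham (7.86 to 12.5 FPKM).

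Igtp, another immunity-related GTPase gene, measured 30.8 FPKM in MI_vehicle heart 4 and 27.4, 30.8 and 34.6 FPKM in MI_DCA hearts 1, 3 and 5, above a sham range of 7.68 to 14.8 FPKM. The difference of 1.45 stood beside 0.85 in the other infarcted hearts, and Igtp rose by 1.05 (SE 0.24, adjusted p = 0.00263 by limma). Tgtp2 had the largest difference of the list, 1.46 beside 0.61, and its adjusted p of 0.0626 by limma missed the threshold. The members that overlapped sham were Gbp6, Irf8, Socs1 and the T-cell chemokine gene Cxcl9. Irf8, a transcription factor of monocyte development, measured 3.79 to 7.29 FPKM in the 4 hearts, 2.97 to 4.77 in sham and 7.43 to 13.3 in the other infarcted hearts. Guanylate-binding protein, Irgm, Tgtp, Ifit, Oas and class I genes have near-identical relatives, and how reads of 50 bases shared between copies were assigned is not given in the sources used here, so the split between copies is uncertain.

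**Figure D3:**
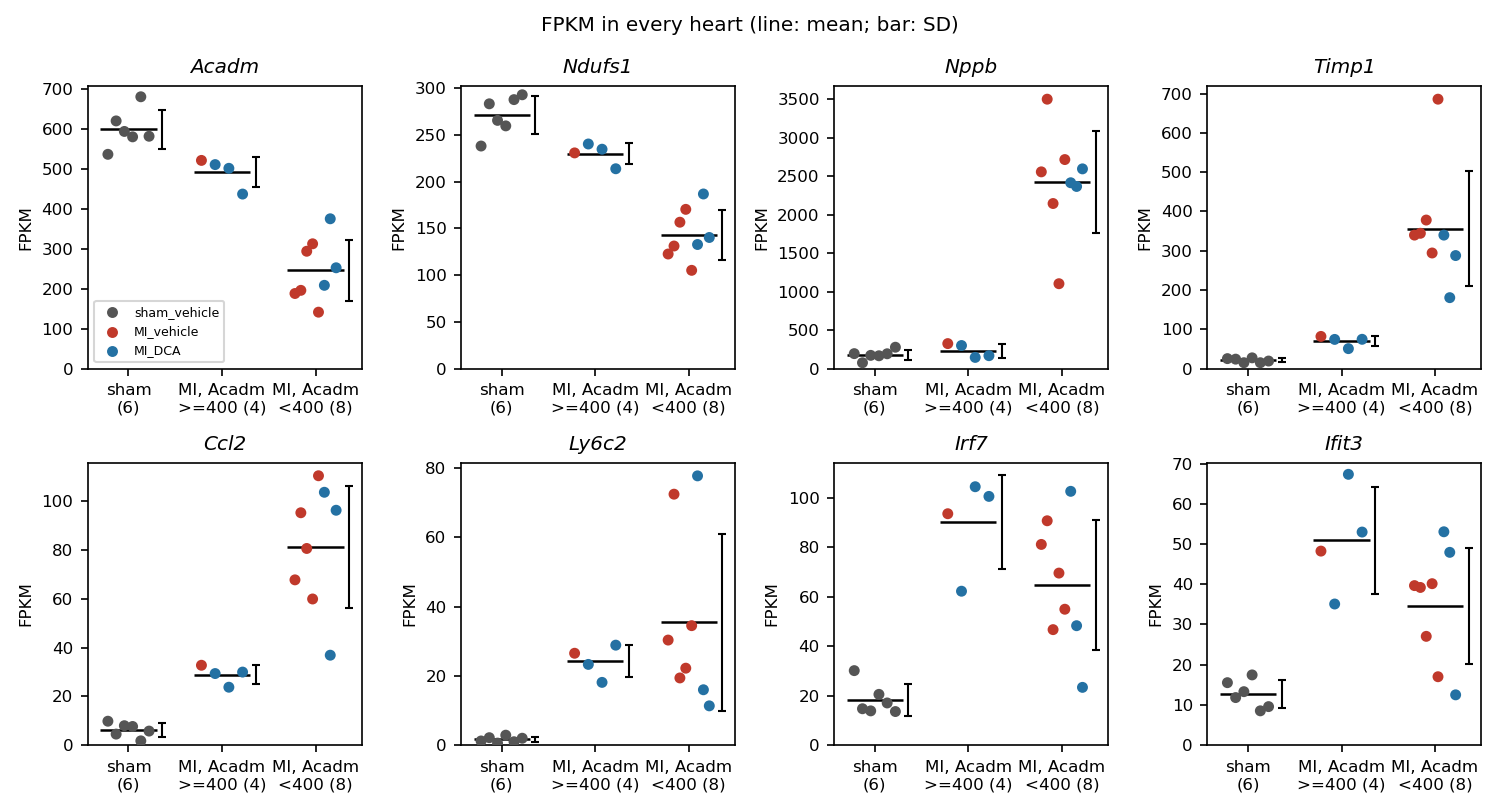
FPKM of 8 genes in each heart (points, coloured by labelled group), with the mean (line) and SD (bar) of the sham hearts, the 4 infarcted hearts with Acadm of at least 400 FPKM and the 8 other infarcted hearts. Nppb in the 4 hearts (144 to 324 FPKM) overlaps sham and lies far below the other infarcted hearts, whereas Irf7 and Ifit3 reach the upper part of their range.

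Upstream of these effectors, 12 of 21 sensing and signalling genes were higher without overlap (7.29% of all genes) and 1 lower (2.2%). Of the 19 with a sham mean of at least 1 FPKM, 11 were higher. The median difference of the list was 0.47 beside 0.67 in the other infarcted hearts. The RNA sensor genes Ddx58 (0.86), Ifih1 (0.79) and Dhx58 (1.34) were higher, as were Stat2 (1.32) and Irf9 (1.10), subunits of the complex that binds the response element. Stat2 measured 18.2 FPKM in MI_vehicle heart 4 and 17.2, 21.7 and 22.1 FPKM in MI_DCA hearts 1, 3 and 5, with 6.25 to 8.46 FPKM in sham and 8.88 to 21.8 FPKM in the other infarcted hearts. Its 4 values did not overlap sham, and Stat2 rose in the labelled test (1.15, SE 0.15, adjusted p = 8.44e-05 by limma). Cgas, the DNA sensor gene, overlapped sham (1.15 to 1.21 FPKM against 0.64 to 1.18) and was higher in the other infarcted hearts (1.94 to 2.74 FPKM). Tmem173, which encodes STING, was at 10.7 to 17.1 FPKM, above the sham range of 6.63 to 10.1 FPKM. Mavs, the adaptor of the RNA sensors, was the member lower without overlap (25.3 to 28.2 FPKM against 29.1 to 37.1 in sham), and it fell in the labelled test (-0.51, SE 0.08, adjusted p = 0.000254 by limma).

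Interferon ligand genes were at or near the lower end of the measurement. Ifnb1 and Ifna4 were listed at 0 in all 4 hearts, and Ifng at 0.08 FPKM in MI_vehicle heart 4 and at 0 in the 3 DCA hearts. Capture libraries of whole tissue give no counts here, so the smallest level that could have been seen is unknown. The receptor genes Ifnar1 (9.61 to 11.8 FPKM), Ifnar2, Ifngr1 and Ifngr2 overlapped sham. Il10rb, a receptor subunit shared by type III interferon and interleukin-10, was lower without overlap (85.0 to 93.5 FPKM against 98.0 to 115 in sham).

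Class I antigen presentation displays intracellular peptides to CD8 T cells and is an interferon target. Of its 17 genes 9 were higher without overlap (7.29% of all genes) and none lower. The medians were 0.48 in the 4 hearts and 0.33 in the others, and 11 rose in the labelled test (35.3% of all genes). Tap1, a subunit of the peptide transporter, measured 18.7 FPKM in MI_vehicle heart 4 and 14.3, 13.8 and 16.7 FPKM in MI_DCA hearts 1, 3 and 5, above a sham range of 5.72 to 9.36 FPKM. Its difference of 1.02 was near the 1.10 of the other infarcted hearts. H2-T23, a non-classical class I gene, had 0.78 beside 0.25, and H2-T22 had 0.67 beside 0.78. B2m and H2-K1, the light chain and a classical heavy chain, overlapped sham, each through MI_DCA heart 3 alone. The 6 class II genes, expressed by antigen-presenting cells, had no member higher or lower without overlap, with a median of -0.17 beside 0.52 in the other infarcted hearts.

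**Figure D4:**
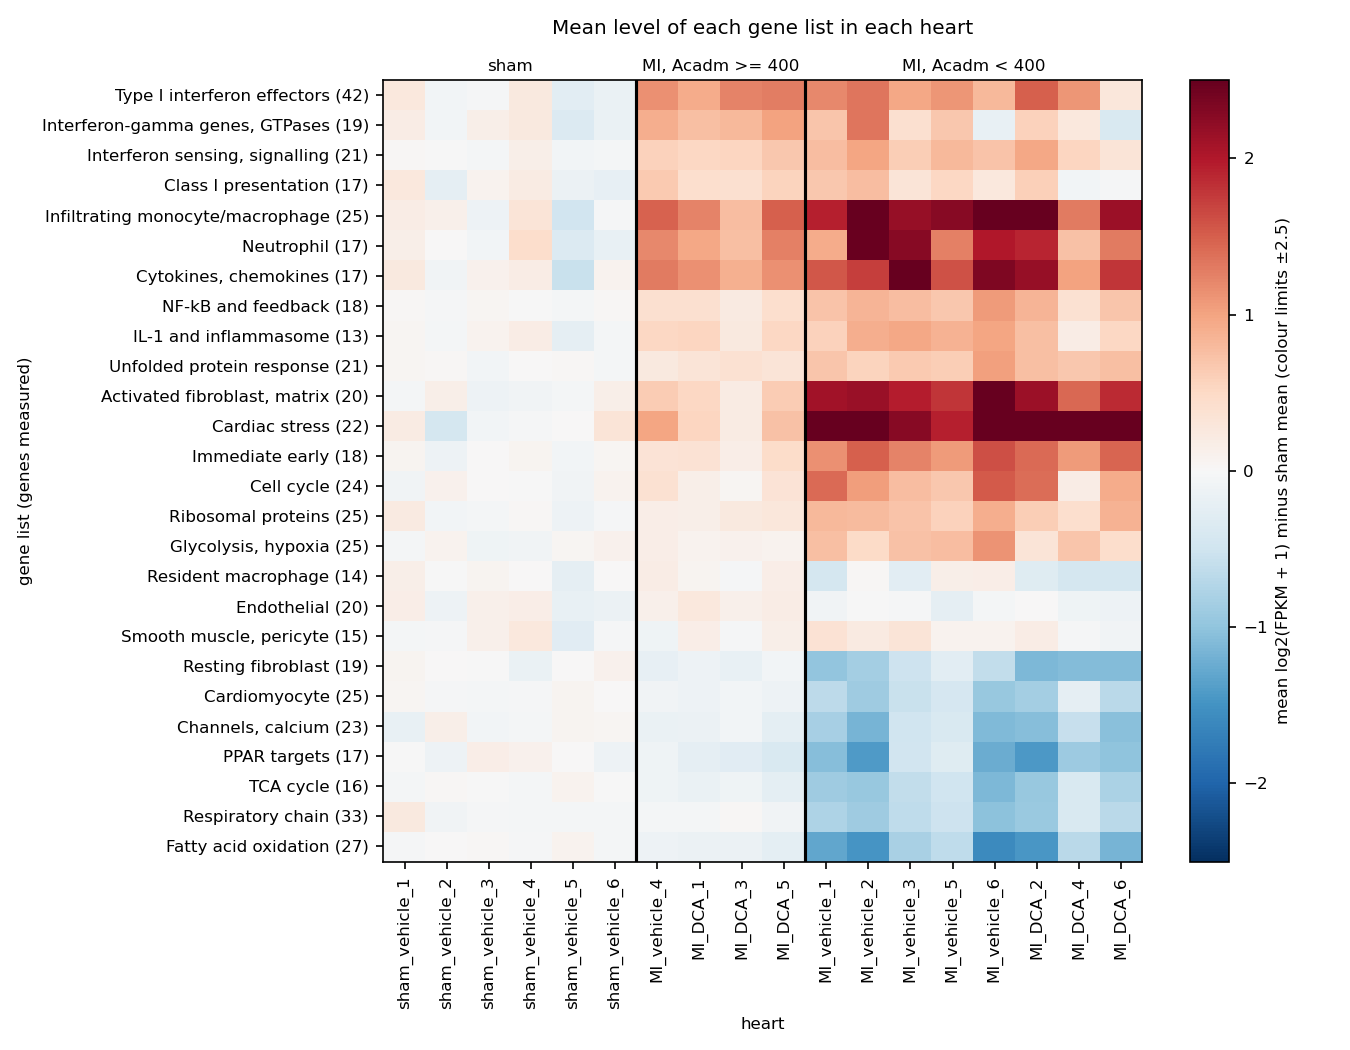
Mean log2(FPKM + 1) of each gene list in each of the 18 hearts, minus the sham mean (colour, limited at 2.5 either side of 0), with the number of measured genes in brackets. In the 4 hearts with Acadm of at least 400 FPKM the type I effector row (0.93 to 1.27) lies within the range of the other infarcted hearts (0.29 to 1.49), and the cardiac stress and fatty acid oxidation rows are pale.

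Monocyte and neutrophil markers were higher along with the interferon genes. Of the 25 monocyte and infiltrating macrophage markers 18 lay above all sham hearts (7.29% of all genes), 16 of the 23 with a sham mean of at least 1 FPKM. In the labelled test 23 of the 25 markers rose (35.3% of all genes). Their summed level was 447 to 765 FPKM in the 4 hearts, 293 to 517 in sham and 620.3 to 2138 in the other infarcted hearts, and none of the 25 was at 0 in all 4 hearts. Per heart, the mean log2 level above sham was 1.48 in MI_vehicle heart 4 and 1.24, 0.78 and 1.49 in MI_DCA hearts 1, 3 and 5, against -0.47 to 0.32 in sham. The median difference was 1.03 and that of the other infarcted hearts 1.90, and none of the 25 had a higher mean log2 level in the 4 hearts than in the other 8. The part of these cells in the interferon result was not tested. MI_DCA heart 3 was the lowest of the 4 in monocyte markers. Its mean log2 level of 0.78 was above the sham maximum of 0.32, while its sum of 447 FPKM was under the sham maximum of 517.

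Ly6c2, an antigen of inflammatory monocytes, had the largest difference of all non-overlapping genes. It measured 26.5 FPKM in MI_vehicle heart 4 and 23.3, 18.1 and 28.8 FPKM in MI_DCA hearts 1, 3 and 5, against a sham minimum, median and maximum of 0.55, 1.56 and 2.84 FPKM. The 4 values were far above sham, with a log2 difference of 3.32, and inside the range of the other infarcted hearts, 11.3 to 77.7 FPKM (3.59). Ly6c2 rose by 3.50 in the labelled test (SE 0.33, adjusted p = 1.17e-05 by limma). Chil3, a chitinase-like protein of monocytes and macrophages, was higher by 2.38, and 3 of its 4 values (9.74 to 20.4 FPKM) lay under the 18.3 to 104 FPKM of the other infarcted hearts. Spp1, the gene of osteopontin, was higher by 2.65 (44.1 to 107 FPKM against 2.04 to 28.5 in sham), beside 4.58 in the others.

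Of 17 neutrophil genes measured among 24 listed, 10 were higher without overlap (7.29% of all genes), with medians of 0.77 and 1.42. In the labelled test 16 of the 17 rose (35.3% of all genes). Among the 11 with a sham mean of at least 1 FPKM, 6 were higher without overlap. With a mean of at least 5 FPKM required, 5 members were higher and the median was 1.38, and with pseudocount 0.1 the median was 1.68. Summed over all 24, the level was 351 to 419 FPKM in the 4 hearts, 88.1 to 172 in sham and 234 to 610.3 in the other infarcted hearts. Most of the sum in the 4 hearts was Lcn2, and the other 23 genes summed to 112 to 163.5 FPKM in the 4 hearts, 46.9 to 94.5 in sham and 115 to 515 in the other infarcted hearts. Camp and Elane, genes of granule proteins made in the bone marrow, were at 0 in all 4 hearts. S100a9, a calcium-binding protein of neutrophils and monocytes, measured 36.1 FPKM in MI_vehicle heart 4 and 22.9, 15.6 and 30.3 FPKM in MI_DCA hearts 1, 3 and 5, above a sham maximum of 12.6 FPKM. Its difference of 2.24 was smaller than the 3.27 of the other infarcted hearts. Slfn4, a schlafen gene of myeloid cells that interferon also induces, was higher by 2.91 beside 3.34.

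Lcn2, which encodes the iron-scavenging acute phase protein lipocalin 2 and is made by neutrophils and by other cells, departed from its list. It measured 268 FPKM in MI_vehicle heart 4 and 223, 282 and 234 FPKM in MI_DCA hearts 1, 3 and 5, against a minimum, median and maximum of 29.5, 76.8 and 108 FPKM in sham and of 66.2, 107 and 201 FPKM in the other infarcted hearts. All 4 hearts were above all 14 others. The differences from sham were 1.94 and 0.72, and Lcn2 rose by 1.13 (SE 0.34, adjusted p = 0.0108 by limma). Serpina3n, an acute phase protease inhibitor, measured 158 FPKM in MI_vehicle heart 4 and 166, 163 and 141 FPKM in MI_DCA hearts 1, 3 and 5, with 61.9 to 108 FPKM in sham and 37.9 to 134 FPKM in the other infarcted hearts. It too was higher in the 4 hearts than in every other heart, with differences from sham of 0.96 and -0.35, and it passed no threshold in the labelled test (0.08, SE 0.34, adjusted p = 0.848 by limma). Of the 14 measured acute phase and complement genes these were 2 of 3 higher without overlap (7.29% of all genes), Cfb, complement factor B, being the third (0.95 beside 1.01). The median of that list was 0.04 and changed sign with median-ratio scaling (-0.02) and quantile normalization (-0.04).

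Ptx3, a secreted pattern recognition protein, was also as high as in the other infarcted hearts. Its 10.2 FPKM in MI_vehicle heart 4 and 13.1, 10.2 and 10.8 FPKM in MI_DCA hearts 1, 3 and 5 lay above the sham maximum of 2.59 FPKM, and the differences from sham were 2.25 and 2.18. Over all tested genes, 172 (1.44%) were higher without overlap with a mean at least that of the other infarcted hearts. The 8 of these with the largest difference were Irf7, Lcn2, Ifit3, Ifit1, Bst2, Ifit3b, Ifi44 and Rtp4, of which all but Lcn2 belong to the interferon lists.

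**Figure D5:**
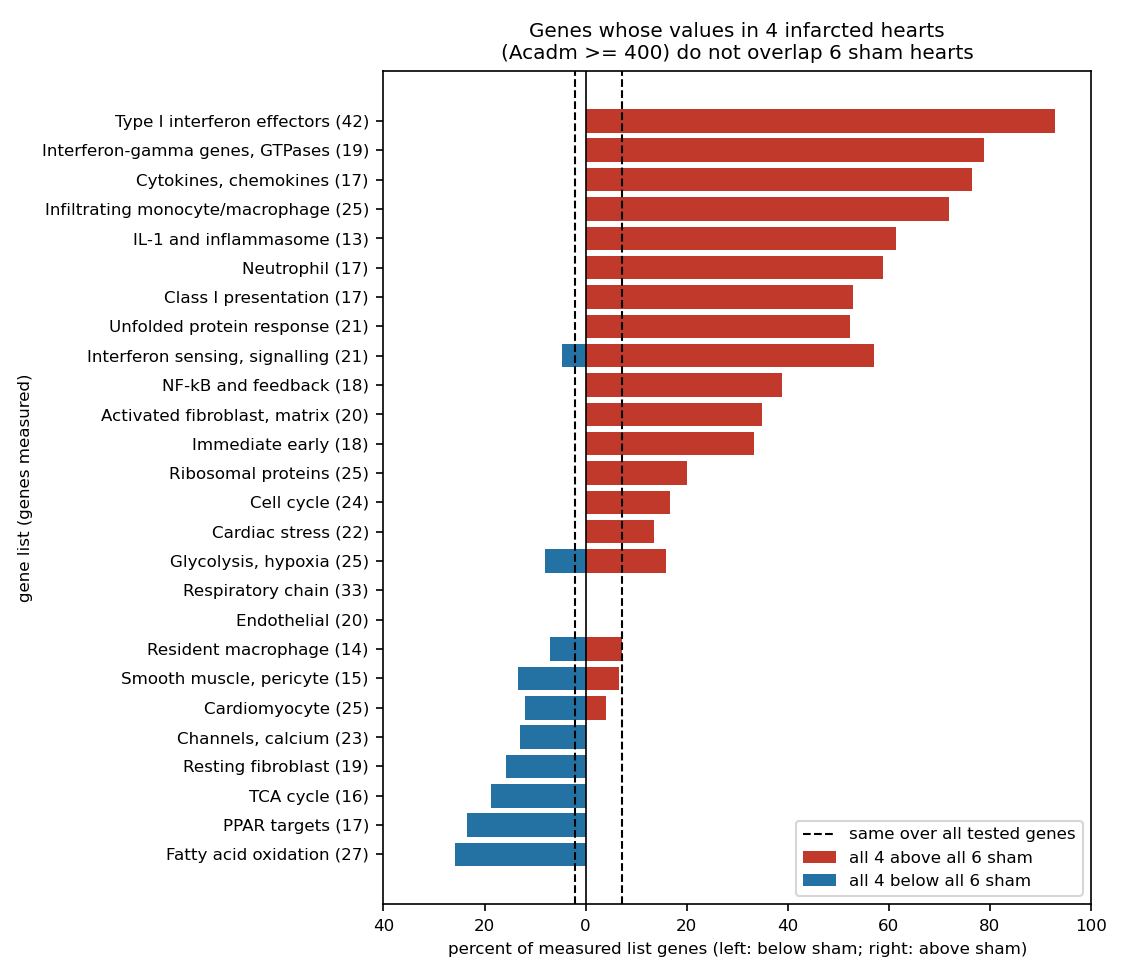
Percent of the measured genes of each list whose values in the 4 hearts lie above (right) or below (left) all 6 sham hearts, with dashed lines at the shares over all tested genes, 7.29% and 2.2%. Type I interferon effectors have the longest bar (39 of 42), and cardiac stress genes a short one (3 of 22).

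Proinflammatory cytokine and chemokine genes lay above sham by less than in the other infarcted hearts, with medians of 0.88 and 2.05. Of 17 measured among 25 listed, 13 were higher without overlap (7.29% of all genes), 7 of the 10 with a sham mean of at least 1 FPKM. In the labelled test 14 of the 17 rose (35.3% of all genes). The median was 1.94 with pseudocount 0.1, and 1.75, with 8 members higher, when a mean of at least 5 FPKM was required. Ccl2, the main chemokine for monocytes, measured 32.7 FPKM in MI_vehicle heart 4 and 29.3, 23.7 and 29.9 FPKM in MI_DCA hearts 1, 3 and 5. Sham hearts had 1.71, 6.67 and 9.77 FPKM as minimum, median and maximum, and the other infarcted hearts 36.9, 88.0 and 111 FPKM. The 4 hearts fell between both sets without overlap, at 4.66 times the sham mean where the others had 13.1 times, and Ccl2 rose by 3.10 (SE 0.35, adjusted p = 2.71e-05 by limma). Its relatives Ccl7 (2.46 beside 3.46) and Ccl12 (2.01 beside 2.62) were between both sets in mean.

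Il1b, the gene of interleukin-1 beta, measured 8.47 FPKM in MI_vehicle heart 4 and 6.02, 2.90 and 5.42 FPKM in MI_DCA hearts 1, 3 and 5, above a sham range of 0.64 to 1.39 FPKM. MI_DCA heart 3 was the lowest, and only it lay under the range of the other infarcted hearts, 3.53 to 34.0 FPKM. Il6 gave 2.45 FPKM in MI_vehicle heart 4 and 1.81, 0.67 and 0.45 FPKM in MI_DCA hearts 1, 3 and 5, above a sham maximum of 0.30 FPKM, with the vehicle heart again the highest. With such sham values Il6 could reach the filter of 1 FPKM only through the infarcted hearts, so its difference is bound to the filter. The values of MI_DCA hearts 3 and 5 were themselves low. Of 13 interleukin-1 and inflammasome genes 8 were higher without overlap (7.29% of all genes), 6 of the 11 with a sham mean of at least 1 FPKM. The medians were 0.39 and 0.54, and the decoy receptor gene Il1r2 (1.12) and the receptor antagonist gene Il1rn (1.12) led. Of 18 NF-kB feedback genes 7 were higher without overlap, 6 of the 17 with such a sham mean (0.30 and 0.70). Among them was Socs3, an inhibitor of cytokine signalling (1.33 beside 2.22).

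Cardiac stress genes had the widest gap of all lists between the medians of the 4 hearts and of the others. Of 22 measured 3 were higher without overlap (13.6%, beside 7.29% of all genes), with a median of 0.50 beside 2.40. In the labelled test 21 of the 22 rose (35.3% of all genes). The count without overlap was 9 without MI_DCA heart 3, 6 without sham_vehicle heart 1 and 19 for MI_vehicle heart 4 alone. Fewer hearts overlap less easily, so these counts do not stand beside 7.29%. Of all 11985 genes 1478 were higher without MI_DCA heart 3 and 2839 for MI_vehicle heart 4 alone. Leaving out any 1 heart gave 915 to 1478. With the threshold lowered to 350 FPKM the median was 0.95. Per heart, the mean log2 level above sham was 0.99 in MI_vehicle heart 4 and 0.54, 0.21 and 0.73 in MI_DCA hearts 1, 3 and 5. Sham hearts ranged from -0.43 to 0.32 and the other infarcted hearts from 1.95 to 2.90, so MI_DCA heart 3 lay within sham and the other 3 between both sets.

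Nppb, the gene of brain natriuretic peptide (chromosome 4, 147985786 to 147987205), measured 324 FPKM in MI_vehicle heart 4 and 299, 144 and 167 FPKM in MI_DCA hearts 1, 3 and 5. Sham hearts had 75.0, 181 and 277 FPKM as minimum, median and maximum, so 2 of the 4 were above sham and 2 within it, while the other infarcted hearts had 1102 to 3499.5 FPKM (2484 as median). Nppb rose by 2.66 in the labelled test (SE 0.65, adjusted p = 0.00375 by limma). Nppa, the atrial natriuretic peptide gene, was at 771 FPKM in MI_vehicle heart 4 and 375, 483 and 656 FPKM in MI_DCA hearts 1, 3 and 5, against 136 to 440.08 FPKM in sham and 2527 to 7037 FPKM in the other infarcted hearts. MI_DCA heart 1 was within sham and the other 3 were above it. The 3 stress genes without overlap were Nmrk2, a muscle enzyme that makes the cofactor NAD, the LIM-domain gene Fhl1 and Myh7, the slow myosin heavy chain. Nmrk2 measured 47.3 FPKM in MI_vehicle heart 4 and 11.9, 23.7 and 14.4 FPKM in MI_DCA hearts 1, 3 and 5, just above the sham maximum of 10.9 FPKM and far below the 191 to 646 FPKM of the other infarcted hearts. Its log2 differences from sham were 1.4 and 5.47.

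Of 20 activated fibroblast and matrix genes 7 were higher without overlap (7.29% of all genes), 6 of the 17 with a sham mean of at least 1 FPKM. The other 13 overlapped sham. The medians were 0.37 and 1.75, and 19 rose in the labelled test (35.3% of all genes). Lowering the threshold to 350 FPKM gave a median of 0.63. Timp1, an inhibitor of matrix metalloproteinases, measured 81.7 FPKM in MI_vehicle heart 4 and 74.1, 50.6 and 74.4 FPKM in MI_DCA hearts 1, 3 and 5, with a sham maximum of 27.2 FPKM and 180.44 to 686 FPKM in the other infarcted hearts. The 4 hearts formed a band of their own between both sets. Tnc, which encodes tenascin C, was higher by 1.21 beside 3.90, and Thbs1, which encodes thrombospondin 1, by 1.27 beside 3.17.

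Stress pathways of other kinds showed smaller differences. Their counts stand beside 7.29% of all genes higher and 2.2% lower without overlap. Of 21 genes of the unfolded protein response 11 were higher without overlap (medians 0.34 and 0.76), led by the chaperone-associated gene Sdf2l1 (1.17 beside 2.22), Manf (0.79) and the disulfide isomerase gene Pdia6 (0.77). Of 18 immediate early genes 6 were (0.24 and 1.37), with Fos at 0.98, Junb at 0.93 and Atf3 at 0.90. Of 24 cell cycle genes 4 were (0.24 and 0.95), and of 25 ribosomal protein genes 5 (0.21 and 0.72). The ribosomal count was 1 with median-ratio scaling and 7 with quantile normalization, where 665 and 643 of all 11985 genes were higher. Of 25 glycolysis and hypoxia genes 4 were higher and 2 lower without overlap (0.10 and 0.63), and the lactate exporter gene Slc16a3 was higher by 1.10 beside 3.28. Heat shock genes had a median of 0.06, which changed sign with quantile normalization (-0.01), and only Cryab, a small heat shock protein gene, was higher without overlap (0.47).

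Energy metabolism was close to sham, in part by the choice of hearts, but not within the sham range throughout. Averaged over the fatty acid oxidation genes, the 4 hearts lay at -0.24 to -0.13 relative to the sham mean, below sham at -0.05 to 0.08. For the citric acid cycle they lay at -0.24 to -0.1, below sham at -0.04 to 0.09. The respiratory chain level (-0.08 to 0.02) overlapped sham (-0.09 to 0.24). Of 27 fatty acid oxidation genes 7, Acadm among them, were lower without overlap (25.9%, beside 2.2% of all genes) and none higher. The number lower was 10 with median-ratio scaling and 4 with quantile normalization, where 513 and 545 of all 11985 genes were lower. The medians were -0.17 and -1.11, and all 27 fell in the labelled test (18.6% of all genes). Lowering the threshold to 350 FPKM gave a median of -0.27. Since Acadm belongs to this list and chose the hearts, the count and the averaged level describe the choice and support nothing. Mlycd, the malonyl-CoA decarboxylase gene, measured 69.7 FPKM in MI_vehicle heart 4 and 60.4, 56.2 and 58.2 FPKM in MI_DCA hearts 1, 3 and 5, under a sham range of 73.9 to 81.9 FPKM. Cd36, the fatty acid transporter gene, was at 579.52 to 588 FPKM, under 652 to 875 FPKM in sham and above 247 to 493.2 FPKM in the other infarcted hearts. The 33 respiratory chain subunits had a median of -0.01 with no gene higher or lower without overlap, beside -0.71 in the other infarcted hearts. In the labelled test 29 of them fell (18.6% of all genes). The median of the 33 was 0.03 without sham_vehicle heart 1, and -0.1 with the threshold at 350 FPKM. Of 16 genes of the citric acid cycle 3 were lower without overlap (2.2% of all genes), among them Sucla2 (-0.24) and Fh1 (-0.10). The medians of this list were -0.16 and -0.77. The number lower was 4 with median-ratio scaling and 1 with quantile normalization, again beside 513 and 545 of all 11985 genes.

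PPAR targets, the genes of the fatty acid-activated nuclear receptors, had 4 of 17 lower without overlap (2.2% of all genes). The medians were -0.21 and -0.84. Among the 4 were the thioesterase gene Acot1 (-0.72 beside -2.38), Ppargc1a, a coactivator of mitochondrial biogenesis (-0.54 beside -1.22), and the lipid droplet gene Plin5 (-0.37 beside -1.66). Pdk4, a kinase that inhibits pyruvate oxidation, measured 260.14 FPKM in MI_vehicle heart 4 and 152, 116 and 94.2 FPKM in MI_DCA hearts 1, 3 and 5, against 164 to 402 FPKM in sham. The 3 DCA hearts were under all sham hearts and the vehicle heart was among them.

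Of 25 cardiomyocyte markers 3 were lower without overlap (2.2% of all genes) and 1 higher (7.29% of all genes), with medians of -0.06 and -0.79. Averaged over the 25, the 4 hearts lay at -0.13 to -0.07 relative to the sham mean, slightly below sham at -0.04 to 0.06. The 1 higher marker, Tnnt2, overlapped sham after rescaling (0 higher with median-ratio scaling and with quantile normalization). The 3 lower markers were the M-band gene Myom2 (-0.45), the calcium pump inhibitor gene Pln (-0.31) and the Z-disc gene Ldb3 (-0.26). The number lower was 4 with median-ratio scaling and 1 with quantile normalization, where 513 and 545 of all 11985 genes were lower. Myh6, the fast myosin heavy chain gene that dominates in adult mouse heart muscle, measured 3771 FPKM in MI_vehicle heart 4 and 3645, 4428 and 3428 FPKM in MI_DCA hearts 1, 3 and 5, with 4032 to 4668 FPKM in sham and 1286 to 2733 FPKM in the other infarcted hearts. Only MI_DCA heart 3 was within sham, and all 4 were above the other infarcted hearts.

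Ion channel and calcium handling genes had 3 of 23 lower without overlap (2.2% of all genes), with medians of -0.07 and -0.72. Kcnip2, which encodes a partner protein of the potassium channels that carry the transient outward current, measured 75.2 FPKM in MI_vehicle heart 4 and 76.3, 61.7 and 60.7 FPKM in MI_DCA hearts 1, 3 and 5. The sham minimum, median and maximum were 110.35, 118 and 133 FPKM, and the other infarcted hearts had 5.91 to 26.1 FPKM. The 4 hearts lay between both sets, with a mean of 0.567 times sham where the others had 0.132 times. The other 2 were Kcnv2 and Pln.

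The 2 genes lower without overlap by at least 1 on the log2 scale were Inmt, the gene of an indolethylamine N-methyltransferase (-1.51 beside -2.95), and Mylk4, a myosin light chain kinase gene (-1.14 beside -2.29). Mylk4 measured 14.3 FPKM in MI_vehicle heart 4 and 22.8, 30.3 and 15.9 FPKM in MI_DCA hearts 1, 3 and 5, under a sham range of 35.0 to 65.7 FPKM. Retnla (-0.86), a gene of alternatively activated macrophages, the carboxylesterase gene Ces1d (-0.81), the lipoprotein receptor gene Vldlr (-0.79) and Armc2 (-0.73) were next with Kcnip2 (-0.81) and Acot1. All 8 were lower still in the other infarcted hearts.

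Among markers of non-muscle and non-infiltrating cells, few genes were higher or lower without overlap, where 7.29% and 2.2% of all genes were. None of 20 endothelial markers was, with a median of 0.18 beside -0.05, and their summed level was 3161 to 3760 FPKM in the 4 hearts, 2620.0 to 4296 in sham and 2128 to 2977 in the other infarcted hearts. Of 19 resting fibroblast markers 3 were lower without overlap, the matrix genes Dpt (-0.40) and Dcn (-0.38) and the actin-severing gene Gsn (-0.47), with medians of -0.17 and -0.65. Of 15 smooth muscle and pericyte markers 1 was higher, Mcam (0.36), and 2 were lower, Abcc9 (-0.43) and Rgs5 (-0.34). Of 14 resident macrophage markers Cd163 was lower (-0.42) and Lyve1 higher (0.41), with a median of 0.07 beside -0.14. The shares higher in these 2 lists, 6.67% and 7.14%, were near that of all genes. No lymphocyte or natural killer marker of the 14 in the files passed the filter, and their summed level was 2.98 to 7.52 FPKM in the 4 hearts and 3.99 to 5.55 in sham, with none at 0 in all 4. Of 2 measured platelet genes Ppbp was higher (1.07).

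Gpbar1, the gene of the bile acid receptor TGR5, lay below the filter at 0.09 FPKM in MI_vehicle heart 4 and at 0, 0.10 and 0.20 FPKM in MI_DCA hearts 1, 3 and 5, with 0 to 0.20 FPKM in sham and 0.08 to 0.82 FPKM in the other infarcted hearts. The 4 hearts and sham covered the same range. Of 6 measured bile acid genes the exporter gene Abcc3 was higher without overlap (1.43 to 2.14 FPKM against 0.78 to 1.06 in sham). Cyp27a1, a sterol hydroxylase gene of bile acid synthesis, was lower (12.4 to 15.4 FPKM against 16.8 to 20.2). Over all tested genes 7.29% were higher and 2.2% lower. Abcc3 had a sham mean under 1 FPKM and passed the filter through the infarcted hearts, so its difference is bound to the filter.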

How the data were processed

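The deposited values are FPKM per gene for each of 18 libraries. The file headers give no unit, so it is taken from the values. Per the labels' protocols, the authors made capture libraries from Trizol total RNA of frozen perfused hearts and sequenced single reads of 50 bases. Per the submitters' processing notes, Bowtie2 2.2.5, RSEM 1.2.12, DESeq2 1.4.5 and GRCm38.p6 were used, with no roles given. Depth was estimated from the FPKM steps of 439 single-exon genes, searched between 8000000 and 16000000 reads, and depths outside that range were not considered.

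Hearts were chosen by Acadm of at least 400 FPKM, and they were compared with sham by non-overlap and by means of log2(FPKM + 1), for the 11985 of 19197 genes that averaged 1 FPKM or more. The members and lists were chosen with earlier results of these data known. The labelled contrast used limma with a trend, Benjamini-Hochberg adjusted at 0.05, and was tested on simulated data. Genes named were those of a fixed panel, up to 4 per list and the 8 with the largest differences. Ranges of other genes (Cgas, Tmem173, Irgm2, B2m, H2-K1 and those overlapping sham), and the values of Mlycd, which the list rule named, were added after they were seen. Alternatives were another pseudocount, filters, median-ratio and quantile scaling, other Acadm thresholds, single treatments, left-out hearts and a replicate block. Transcript-level files were not used. Some single genes are not reported here.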

Additional observations from a re-analysis of the deposited data

Results flagged for a closer look

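In 69 groups of hearts, single values far from their group were searched, and chance flags about 1 in 20 groups. There were 5. Among the 4 high-Acadm hearts, the fatty acid oxidation level of MI_DCA heart 5, -0.24 relative to the sham mean, stood apart as the lowest. It is also the heart with the lowest Acadm of the 4. In the sham group, heart 1 stood apart in 3 values. It had the highest level of respiratory chain genes (0.24 above the sham mean), the lowest Myh6 (4032 FPKM, 4030.0 to 3 digits) and the highest Isg15 (11.0 FPKM). Among the other infarcted hearts, MI_vehicle heart 1 had an Nppa of 7037 FPKM (7040.0 to 3 digits).

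For 6 genes, picked after their values were seen, the 4 high-Acadm hearts lay on one side of all sham hearts and the 8 other infarcted hearts on the opposite side. The difference between both sets was not tested. Apln, the gene of the peptide hormone apelin, had -0.47 in the 4 hearts and 2.24 in the others on the log2 scale. Its FPKM were 1.91 to 2.99 in the 4 hearts, 3.05 to 4.45 in sham and 18.04 to 32.7 in the others. Picalm, a gene of clathrin-mediated endocytosis, had -0.24 and 0.92. The remaining 4 were higher in the 4 hearts and lower in the others, namely Rab4a (0.19 and -0.57), Chst15 (0.1 and -0.23), Phyhd1 (0.26 and -0.97) and Tle2 (0.32 and -0.58).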

How the results depend on the processing

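The medians of acute phase and heat shock genes, of respiratory chain genes and of all genes, each near 0, changed sign under alternatives given with them, and the labelled balance turned with quantile normalization. Of 304 values for further lists, 273 moved little and 31 moved. For the 4 hearts against sham, pseudocount 0.1 gave 186 genes at least 2-fold higher (112 as reported) and medians of 1.25 for type I effectors and 1.1 for interferon-gamma genes, beside 1.5 for monocyte, 1.68 for neutrophil and 1.94 for cytokine genes (1.03, 0.77 and 0.88 as reported). Genes lower without overlap numbered 513 with median-ratio scaling and 545 with quantile normalization. With a mean of at least 5 FPKM, 1 gene was at least 2-fold lower. The 3 DCA hearts alone had 426 lower genes. MI_vehicle heart 4 alone, with fewer values to overlap, had 2839 higher and 1529 lower, 172 and 16 of them at least 2-fold. With Acadm of at least 350 FPKM, 6 genes were at least 2-fold lower, and interferon-gamma members numbered 9 with a median of 0.77, beside medians of 0.95 for cardiac stress and 0.63 for matrix genes. Leaving out 1 heart gave 915 to 1478 higher genes (highest without MI_DCA heart 3) and 297 to 580 lower genes (580 without sham heart 1, 426 without MI_vehicle heart 4). It gave 98 to 150 at least 2-fold higher and 2 to 3 at least 2-fold lower. With 1 heart left out, type I members stayed at 39 to 40 (medians 0.98 to 1.1) and interferon-gamma members at 15 to 16 (0.86 to 1.02). Type I members numbered 35 with median-ratio scaling, 36 with quantile normalization, 36 with Acadm of at least 350 FPKM and 35 with the stricter filter of 5 FPKM. For the other infarcted hearts, quantile normalization, added after seeing the data, gave 2283 lower genes and an interferon-gamma median of 0.36. In the labelled test, quantile normalization gave 2989 higher and 3450 lower genes (46.4% higher, 65.5% as reported), median-ratio scaling 3171 and 3161, and the MI_DCA hearts alone 1902 higher and 973 lower with 5 interferon-gamma members higher. The replicate block gave 4241 higher and 2312 lower. Same-numbered hearts did not consistently deviate together. Their correlations ran from -0.441 to 0.688, with 6 of 18 pairs over 0.1. This cannot decide whether the numbers pair the samples, because differences between infarcted hearts of a group enter the same correlations. The causes were not tested. Depth behind single low values is unknown.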
